A study of Mus musculus with 2 samples.

Results

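EC1 is 1 of 15 clusters into which the authors sorted the osteogenic and mesenchymal cells of the embryonic mouse coronal suture, and it is named ectocranial, that is, outside the skull bones. Its members were taken as the cells that carry the label EC1 in the authors' cell table. They were 330 of 5335 labelled cells at E15.5 (E for embryonic day) and 295 of 6830 in the E17.5 library, or 625 of 12165 in all. Cells came from coronal sutures of wild-type C57/BL6 embryos and were profiled with the 10x Genomics Chromium 3′ system, with 1 deposited matrix, called a library here, for each stage. The E15.5 library came from 10 pooled sutures that were digested for 45 min with collagenase II at 3 mg/mL and dispase and then passed through dead cell removal. The E17.5 library came from 16 sutures of 2 litters that were digested in 3 batches of 10, 3 and 3 sutures for 30 min with collagenase IV at 2 mg/mL and then put through FACS. Stage, dissociation, sorting and embryos therefore differed together and cannot be told apart. Barcodes at E17.5 carry a suffix of 1, 2 or 3, and the sources used here do not say which suffix is which batch. With 1 library a stage no test was possible, so the comparisons below are descriptions, and values of the 3 suffixes are given as technical subsets.

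The label was only partly borne out by the markers. Jag1, the marker given for EC1, had its highest pooled level of all 15 clusters in EC1 in both libraries, and the ectocranial markers Ly6a, Dpt and Pi16 were above the other labelled cells. At E17.5, however, EC1 also held Sp7, Runx2 and Dlx5 at levels near those of the other labelled cells, and most of its cells were closer in the rest of their expression to an osteogenic cluster than to an ectocranial one. Pooled over its cells, EC1 at E17.5 was still most like the ectocranial clusters EC2 and EC3, so the 2 views differed. The cluster is therefore called EC1 below, without a cell type name.

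The coronal suture is the fibrous joint between the frontal and parietal bones, where osteoprogenitors supply the growing bone fronts. Layers of mesenchyme lie on both sides of it, with the meninges below and ectocranial connective tissue, fascia and dermis above. JAG1 is a membrane-bound ligand of the Notch receptors, which are cut upon ligand binding and release a fragment that acts with RBPJ in the nucleus. Signalling through JAG1 and Notch is known to take part in setting the boundary between tissues at the coronal suture, and mutations in JAG1 can cause Alagille syndrome, in which craniosynostosis has been described.

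The share of EC1 among labelled cells was 6.19% (95% exact interval 5.55 to 6.87) at E15.5 and 4.32% (3.85 to 4.83) in the E17.5 library. In suffixes 1, 2 and 3 the cluster made up 120 of 1234 cells (9.72%, 8.13 to 11.5), 55 of 2770 (1.99%, 1.5 to 2.58) and 120 of 2826 (4.25%, 3.53 to 5.06). The intervals of the 3 suffixes do not overlap, and the share at E15.5 lies between those of suffixes 1 and 3, so the spread within the E17.5 matrix is larger than the difference between the libraries. Intervals here and below cover counting error only.

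**Figure D1:**
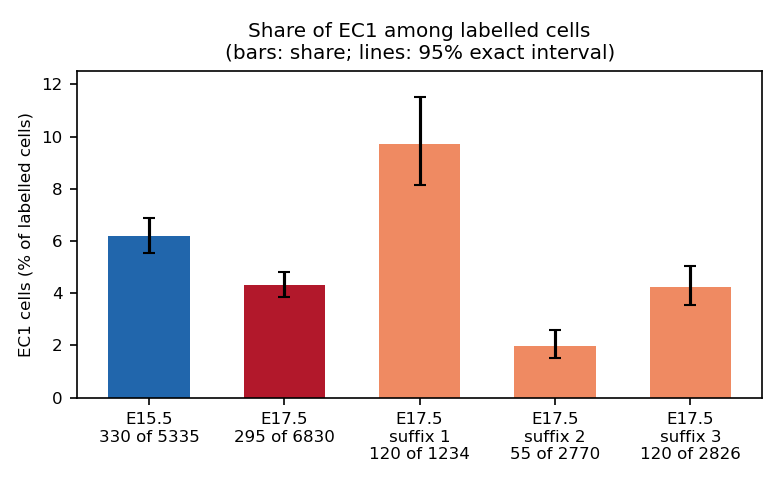
Share of EC1 among labelled cells, in percent, for the E15.5 library, the E17.5 library and the 3 barcode suffixes of E17.5. Bars are shares and error bars are 95% exact intervals. Suffix 1 stands highest at 9.72% and suffix 2 lowest at 1.99%.

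EC1 cells held 3076030 unique molecular identifiers (UMIs) at E15.5 and 2528951 in the E17.5 library, and the other labelled cells 45531787 and 90056083. The median depth of an EC1 cell was 9143 UMIs against 8446 in the others at E15.5, and 6767 against 12472 at E17.5. EC1 cells were the shallower ones in each of the 3 suffixes, with medians of 6400, 7074 and 7198.5 UMIs against 11834, 12401 and 12720. After thinning to 3000 UMIs the median number of genes was 1370 against 1349 in the E15.5 library and 1315 against 1342 at E17.5. Mitochondrial content was 1.47% against 1.65% and 2.23% against 2.31%. By Scrublet score, 4.55% of EC1 cells of E15.5 and, in the suffixes, 3.33%, 7.27% and 4.17% were above the limit used for doublets, against 3.96%, 4.31%, 5.16% and 4.92% of the other labelled cells. Labelled cells of the 2 libraries share 42 barcode sequences, and 1 sequence is found in EC1 cells of both libraries. Levels below are pooled, that is, the UMIs of a gene summed over cells, divided by all UMIs of those cells and scaled to CPM, with an exact Poisson interval, and ratios are EC1 over all other labelled cells of the same library. The mix of these other cells differed between the libraries. Ectocranial clusters gave 3076 of them at E15.5 and 1847 at E17.5, osteogenic clusters 1287 and 3425, and meningeal clusters 642 and 1263. A ratio can therefore differ between libraries through the other cells alone. The authors defined EC1 on the same cells, so its leading genes describe the cluster and are not a test of it.

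The Notch ligand Jag1 (chr2:137081456-137116644, GRCm38) and the receptor Notch2 (chr3:98013527-98150361) were both among the leading genes of EC1, together with Spry2 (chr14:105891947-105896819), which encodes a feedback inhibitor of receptor tyrosine kinase signalling such as that of FGF receptors. These 3 genes carry the description that follows, and the 250 bases before their start in RefSeq (GRCm38.p6) are printed, 5′ to 3′ in the direction of the gene and with CG dinucleotides in capitals, because CG content and short motifs were counted over all promoters. The gene positions above are from GENCODE. For Jag1 and Notch2 the RefSeq start lies inside them, so part of the printed bases falls within the GENCODE gene.
Jag1, chr2:137116521-137116770, minus strand: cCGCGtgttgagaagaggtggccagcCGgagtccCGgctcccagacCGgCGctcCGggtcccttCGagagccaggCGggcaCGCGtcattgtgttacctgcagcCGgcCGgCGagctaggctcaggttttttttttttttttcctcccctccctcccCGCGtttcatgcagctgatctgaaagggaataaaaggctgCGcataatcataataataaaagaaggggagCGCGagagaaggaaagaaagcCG
Notch2, chr3:98013288-98013537, plus strand: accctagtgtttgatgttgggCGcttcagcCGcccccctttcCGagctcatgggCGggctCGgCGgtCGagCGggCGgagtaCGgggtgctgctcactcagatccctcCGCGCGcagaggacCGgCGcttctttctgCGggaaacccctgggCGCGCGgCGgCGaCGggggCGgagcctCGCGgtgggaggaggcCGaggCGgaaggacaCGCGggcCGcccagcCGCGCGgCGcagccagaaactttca
Spry2, chr14:105896820-105897069, minus strand: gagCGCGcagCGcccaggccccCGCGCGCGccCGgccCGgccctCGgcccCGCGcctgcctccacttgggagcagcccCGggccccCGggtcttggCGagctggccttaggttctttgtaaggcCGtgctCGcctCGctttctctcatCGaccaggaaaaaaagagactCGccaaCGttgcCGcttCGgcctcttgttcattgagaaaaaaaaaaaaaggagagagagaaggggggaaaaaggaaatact
They hold 20, 34 and 23 CG dinucleotides. The median was 19 over the 42 of the 52 leading genes (defined below) that matched a RefSeq promoter, 18 over 3973 genes with enough UMIs to be compared, and 6 over all 27025 promoters, so the leading genes had about the CG content of other genes detected in these cells.

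Jag1 was at 219 CPM in EC1 and 44.1 in the other labelled cells at E15.5, a ratio of 4.96 (4.54 to 5.41), and at 85.4 and 17.1 CPM at E17.5, a ratio of 5.0 (4.32 to 5.77). In suffixes 1, 2 and 3 its level was 105, 61.4 and 78.4 CPM against 22.7, 14.9 and 17, which gives ratios of 4.6, 4.12 and 4.61. With the other cells pooled, the ratio was thus alike in all of these subsets, while the level in CPM was lower at E17.5 in EC1 and in the other cells. Equal weights for the other clusters set the ratios of the 2 libraries further apart, with the values given in the last section. EC2 came next in both libraries, with 80.1 and 54.6 CPM, and the lowest clusters were PO2 at E15.5 with 6.20 CPM and OG4 at E17.5 with 3.14 CPM. At least 1 Jag1 UMI was found in 233 of 330 EC1 cells (70.6%) at E15.5, against 27.0% of the other labelled cells, and in 110 of 295 (37.3%) at E17.5, against 18.0%. When each cell was thinned to 3000 UMIs these shares were 43.4% (37.7 to 49.2) against 11% and 19.7% (15.3 to 24.7) against 5.72%. Myeloid cells, identified among unlabelled barcodes and expected to lack Jag1, gave 6.68% of 584 cells (median 11141 UMIs) and 10.5% of 884 cells (median 11536.5 UMIs) before thinning and 1.76% and 2.49% after it, so EC1 stood above this background in both libraries. EC2 and EC3 thinned to the same depth had 19.8% and 14.4% at E15.5 and 15.1% and 14.4% in the E17.5 library.

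Notch2 was at 228 CPM in EC1 against 41.9 at E15.5 (ratio 5.44, 4.98 to 5.93) and at 211 against 29.1 at E17.5 (7.26, 6.6 to 7.97). Its level in the suffixes was 212, 222 and 205 CPM against 37.7, 23.5 and 31.2. Unlike Jag1, Notch2 kept nearly the same level in EC1 in both libraries and in all suffixes. The next cluster was MG4 in both libraries, at 93.3 and 74.2 CPM, well below EC1. In thinned cells, 49.7% of EC1 cells at E15.5 and 45.1% in the E17.5 library had a Notch2 UMI, against 10.9% and 8.94% of the other labelled cells and 9.15% and 6.45% of myeloid cells, a class that may itself express Notch2.

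Spry2 had the largest ratio of all leading genes by the ranking used, at 207 CPM against 23.6 at E15.5 (8.77, 7.94 to 9.69) and 46.7 against 4.25 at E17.5 (11, 8.85 to 13.5). In the suffixes it was at 50.8, 23.3 and 53.2 CPM against 6.92, 3.17 and 4.28. The level in EC1 was lower at E17.5 than at E15.5 in every suffix, and so was the level of the other cells. The next cluster was PO2 at E15.5 with 49.6 CPM and EC2 at E17.5 with 13.1 CPM. Thinned EC1 cells had a Spry2 UMI in 37.4% and 9.83% of cases, against 5.91% and 1.33% of the other labelled cells and 2.29% and 1.58% of myeloid cells.

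In all, 52 of 5009 genes (1.04%) were at least 2-fold higher in EC1 than in the other labelled cells in both libraries, counting genes with at least 50 UMIs in EC1 in each, and 32 of 5106 (0.627%) were at least 2-fold lower, counting genes for which the level of the other cells predicts at least 50 UMIs in EC1. The median ratio over all genes was 1.00 in the E15.5 library and 0.967 at E17.5. The 52 leading genes had ratios of 2.03 to 8.77 at E15.5, with a median of 2.73, and of 2.03 to 11 at E17.5, with a median of 3.52. For 44 of them no other cluster had a higher level in either library. All 52 had a ratio above 1 in each suffix, 41 had a ratio of at least 2 in each, and 44 had the larger ratio at E17.5. Over all genes with enough UMIs in a suffix, 2.24%, 2.31% and 2.18% were at least 2-fold higher in suffixes 1, 2 and 3, and 1.54%, 0.7% and 1.25% lower. The 52 genes together took 1.55% of EC1 UMIs at E15.5 against 0.480% in the other cells and 2.06% against 0.464% at E17.5. At the limit, Pi16 was the last gene inside, with a smaller ratio of 2.03, and Gas7 the first outside, just under 2 (2.00 when rounded).

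After Spry2, the next largest ratio belonged to Slc39a1 (chr3:90248172-90253612), a zinc importer of the plasma membrane. It was at 376 CPM against 68.7 at E15.5 (5.48, 5.12 to 5.87) and 420 against 51.5 at E17.5 (8.15, 7.62 to 8.71), with ratios of 6.16, 9.18 and 7.53 in the suffixes. This was also the most widely detected of the 4 genes in single cells, since 64.2% and 71.2% of thinned EC1 cells had a UMI, against 16.2% and 13.5% of the other labelled cells and 16% and 15.2% of myeloid cells. Other channels and transporters among the first 20 genes were Lrrc8a, a subunit of the volume-regulated anion channel (84.5 against 20.2 CPM at E15.5, 73.9 against 16.4 at E17.5), and Slc24a5, a cation exchanger known from pigment cells (73.8 against 19.9, 70.8 against 12.3). Ttyh2 (58.2 against 11.9, 67.6 against 7.24) and Abhd2 (44.2 against 8.79, 58.9 against 6.52) had ratios above 9 at E17.5.

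Actb, which encodes β-actin and is often taken as a constant gene, was at 7999 CPM in EC1 against 2196 at E15.5 (3.64, 3.59 to 3.69) and at 13348 against 2389 at E17.5 (5.59, 5.52 to 5.65). Its level in suffixes 1, 2 and 3 was 12867, 13407 and 13764 CPM, all more than 4-fold over the other cells, and the next cluster reached 3808 CPM (OG3, E15.5) and 3155 CPM (PO2, E17.5). No other cluster came close to EC1 in the pooled level of this gene. A subset of the other labelled cells was higher, with values given with the summed leading genes below.

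Several of the leading genes encode proteins that act on RNA or chromatin. Rbm15 (43.2 against 11.9 CPM at E15.5, 45.5 against 9.04 at E17.5) and Wtap (147 against 58.3, 161 against 53.8) belong to the complex that writes N6-methyladenosine on mRNA, and Alkbh5 (157 against 47.0, 151 against 41.7) removes it. Kmt2d, a histone H3K4 methyltransferase (47.8 against 13.9, 52.2 against 12.2), Kdm6b, a histone H3K27 demethylase (132 against 41.4, 123 against 24.6), and Cbx3, a heterochromatin protein (685 against 215, 657 against 233), were higher as well. Among DNA-binding proteins, Hsf2, a heat shock factor, was at 35.8 against 10.7 and 32.4 against 6.28 CPM, and Nfia at 437 against 176 and 281 against 82.7. Wtap, Kdm6b, Cbx3 and Nfia stand outside the first 20 genes and were picked from the 52 after their values were seen.

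Other members act in membranes, secretion and metabolism. Insig1, which holds the sterol-sensing machinery in the endoplasmic reticulum, was at 151 against 39.6 CPM at E15.5 and 135 against 33.6 in the E17.5 library. B4galt1, a galactosyltransferase, was at 167 against 51.5 and 137 against 42.9, Timmdc1, an assembly factor of mitochondrial complex I, at 20.8 against 5.6 and 31.6 against 8.97, and Rdh13, a retinol dehydrogenase, at 22.1 against 5.49 and 21.7 against 5.25. Rpgrip1, known from photoreceptor cilia, was at 107 against 24.8 and 112 against 15.4. The remaining genes of the first 20 were D17H6S53E (27.0 against 4.88, 23.3 against 4.30) and Zscan26 (54.9 against 15.7, 57.7 against 10.9). All 52 genes are annotated as protein coding, and 1 pair of them, Slc24a5 and Myef2, lies side by side on chromosome 2 in opposite directions with 4050 shared bases, so reads there may be split between them.

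**Figure D2:**
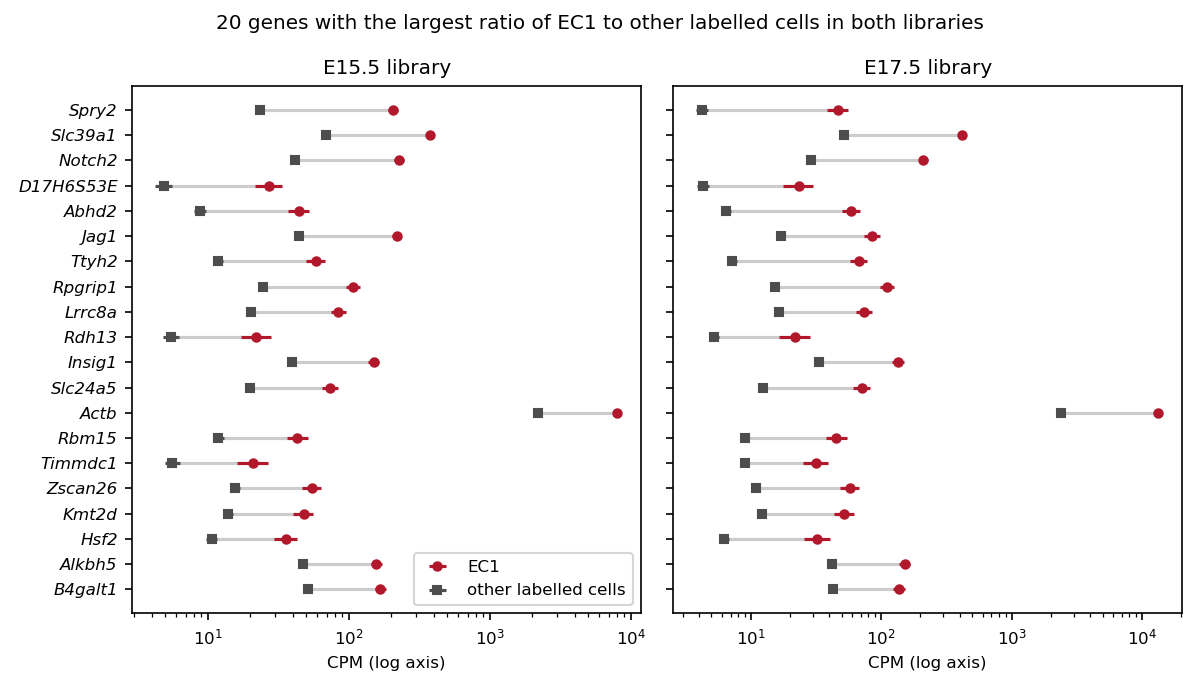
Pooled level in CPM (log axis) of the first 20 leading genes in EC1 (red) and in the other labelled cells (grey), with E15.5 and E17.5 in separate panels and 95% exact Poisson intervals. The red points lie to the right of the grey ones for all 20 genes in both panels, with Actb farthest to the right.

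Of the 12 genes that were lowest in EC1, 8 had their highest level in OG4 in both libraries and 4 in meningeal clusters. Ibsp, which encodes bone sialoprotein, was at 49.1 CPM against 1705 at E15.5 (ratio 0.0288) and 129 against 1721 at E17.5 (0.0747). Ifitm5, an osteoblast membrane protein, was at 12.7 against 140 and 45.1 against 429 CPM, and Spp1, or osteopontin, at 9.75 against 215 and 70.0 against 265. The Spp1 ratio was uneven in the suffixes, with 0.201, 0.799 and 0.141, whereas that of Ibsp was 0.0684, 0.0842 and 0.0764. Smpd3 (5.85 against 67.2, 26.9 against 156) and Sgms2 (10.1 against 53.8, 23.3 against 105), both enzymes of sphingomyelin metabolism, were also low. Of genes highest in meningeal clusters, Cldn11, a tight junction protein, was at 3.25 against 22.8 and 2.77 against 34.6 CPM, and Fxyd5 at 21.8 against 100 and 38.8 against 131. Nppc, which encodes C-type natriuretic peptide, had a pooled ratio of 0.174 and 0.232, but its ratio was 1.14 in suffix 2 against 0.0703 and 0.0548 in suffixes 1 and 3. Of the 32 lower genes, 31 had a ratio below 1 in every suffix, and the exception is Nppc. The other named genes were Car3, Ramp1, Cadm1 and 1500015O10Rik, with ratios of 0.0904 to 0.249 at E15.5 and 0.182 to 0.316 in the E17.5 library.

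Markers of ectocranial fibroblasts were above the other cells in both libraries. Ly6a (chr15:74994877-74998031) was at 598 CPM against 345 at E15.5 (1.73, 1.65 to 1.82) and 509 against 195 at E17.5 (2.61, 2.46 to 2.76). Pi16 (chr17:29317680-29330593) was at 563 against 278 (2.03, 1.93 to 2.13) and 482 against 181 (2.65, 2.50 to 2.81), and Dpt (chr1:164796644-164824266), which encodes dermatopontin, at 428 against 283 (1.51) and 238 against 98.0 (2.43). In suffixes 1, 2 and 3 the ratio was 1.99, 2.58 and 2.08 for Ly6a, 1.93, 2.89 and 1.81 for Pi16 and 2.27, 2.30 and 1.86 for Dpt, so each lay above 1 in every subset. All 3 genes had their highest level in EC2 in both libraries. Pi16 reached 951 CPM in EC2 in the E15.5 library and 1563 CPM at E17.5. For a list of 14 hypodermal and fascia fibroblast genes, the summed level was 6030 CPM in EC1 against 3902 in the other cells at E15.5 and 3777 against 1792 in the E17.5 library, below EC2 in both with 8858 and 12784 CPM. Of the 14 genes, 1 was at least 2-fold higher at E15.5 and 8 in the E17.5 library, where 1.09% and 2.3% of all genes were, and none was 2-fold lower. The summed level in EC1 was itself lower at E17.5, so the larger count goes with a lower level in the other cells, whose mix differed. Within suffixes 1, 2 and 3, 1 of 13, 5 of 9 and 2 of 11 members with enough UMIs were that much higher, and Col14a1 was lower in suffix 3 (ratio 0.457). The summed level was 1.81, 1.96 and 1.60 times that of the other cells in the suffixes, against 2.11 in the pooled library, to which suffix 1 gave 120 of 295 EC1 cells but 1234 of 6830 labelled cells. The median ratio was 1.66 and 2.16, and Col14a1 was the one member below 1 in both libraries, with 171 against 273 CPM in the E15.5 library and 104 against 153 at E17.5.

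Genes of the osteoblast lineage separated the libraries. Sp7 (chr15:102356606-102367182), the transcription factor Osterix that is needed to make osteoblasts, was at 2.93 CPM in EC1 against 13.0 at E15.5 (0.226, 0.103 to 0.432) and at 110 against 117 at E17.5 (0.939, 0.830 to 1.06). Its ratio in the suffixes was 0.812, 0.905 and 0.986. Runx2, which acts before Sp7, went from 9.75 against 29.7 CPM to 81.9 against 84.6, and Dlx5, a homeobox factor of early osteoblasts, from 3.25 against 10.7 to 94.1 against 105. Alpl, or tissue-nonspecific alkaline phosphatase, went from 12.4 against 61.2 CPM to 197 against 254. By pooled ratio, all 4 were lower in EC1 than in the other cells at E15.5 by at least 2-fold and near them at E17.5. Sp7 and Dlx5, however, had only 9 and 10 UMIs in EC1 at E15.5 and were below the minimum for a call there. The levels of all 4 in the other cells were higher at E17.5 too. At E17.5, 23.1% of thinned EC1 cells had an Sp7 UMI, close to 21.3% in the other labelled cells, against 4.77% in EC2, 5.15% in EC3 and 8.82% in myeloid cells. The EC1 share was thus above that of the myeloid cells, which were pooled over the suffixes. The part of free RNA was not tested. At E15.5 the shares were 1.32% in EC1 and 0.704% in myeloid cells. Of the osteoblast list of 15 genes, 8 of 8 with enough UMIs were at least 2-fold lower at E15.5 (background 1.4%) and 4 of 10 at E17.5 (background 0.931%). The summed level was 120.3 CPM against 2320.4 and 818 against 3132, and the late genes Ibsp, Ifitm5 and Spp1 kept the list down at E17.5, together with Cd200.

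**Figure D3:**
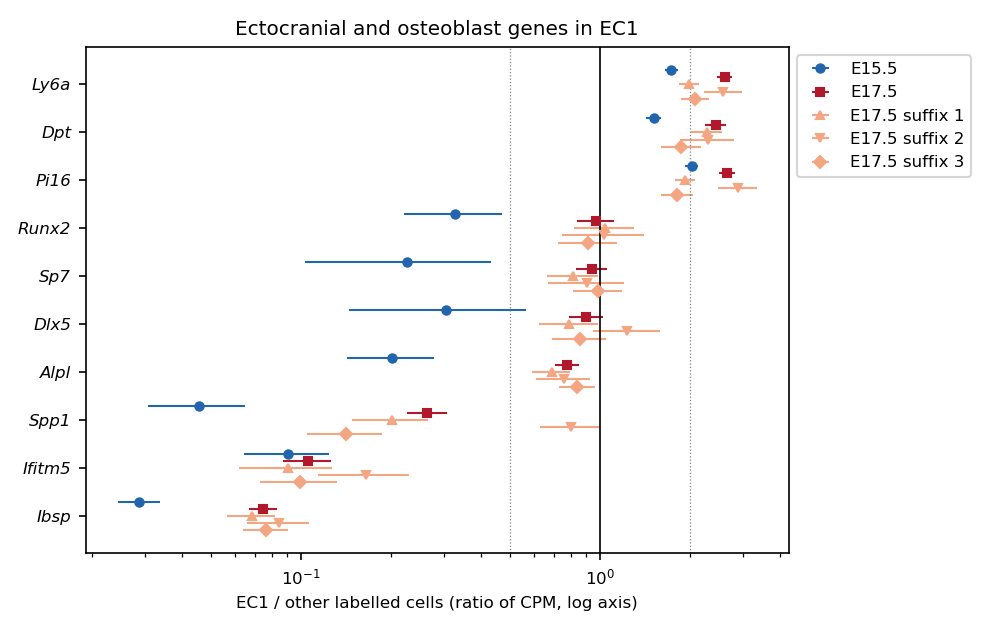
Ratio of EC1 to the other labelled cells (log axis) for ectocranial and osteogenic markers, in E15.5 (blue), E17.5 (red) and the 3 suffixes of E17.5 (orange), with 95% intervals and dotted lines at 0.5 and 2. Ly6a, Dpt and Pi16 lie above 1 throughout, whereas Runx2, Sp7 and Dlx5 lie under 0.5 at E15.5 and near 1 in the E17.5 library, and Ibsp stays far below 0.5.

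Pooled levels do not show whether single EC1 cells held both sets of genes, so each cell was assigned to the cluster among the other 14 whose profile it was most like, over 1000 genes that include none of the genes called for EC1 and none of the hypodermal, osteoblast and suture osteoprogenitor lists. At E15.5, 253 of 330 EC1 cells (76.7%, 71.7 to 81.1) were nearest to an ectocranial cluster, 158 of these to EC2 and 88 to EC3, while 69 (20.9%, 16.6 to 25.7) were nearest to an osteogenic and 8 (2.42%) to a meningeal one. At E17.5, 83 of 295 cells (28.1%, 23.1 to 33.6) were nearest to an ectocranial cluster, 185 (62.7%, 56.9 to 68.2) to an osteogenic and 27 (9.15%, 6.12 to 13.0) to a meningeal one. The osteogenic cells were spread over OG1 (72 cells), OG3 (37), OG2 (35), PO2 (20), PO1 (15) and OG4 (6). In suffixes 1, 2 and 3 the ectocranial share was 41.7%, 12.7% and 21.7% and the osteogenic share 51.7%, 74.5% and 68.3%, so all 3 lay below E15.5 in the first and above it in the second, with a wide spread. The same procedure put 95.9% of the other ectocranial cells, 95.8% of meningeal and 90.8% of osteogenic cells into their own group at E15.5, whereas the 3 shares were 90.1%, 97.2% and 95% for E17.5. These cells were compared with profiles that include their own cluster, while that of EC1 was left out. The shares therefore do not show how well EC1 cells were placed. EC1 cells at E17.5 fitted less well, with a median best correlation of 0.382 against 0.502 in the other cells, where it was 0.519 against 0.492 at E15.5. By median, EC1 cells were shallower than the others only at E17.5. At E15.5, however, 8.48% of EC1 cells were under 3000 UMIs, against 2.64% of the other labelled cells. The part of depth in the fit was not tested.

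**Figure D4:**
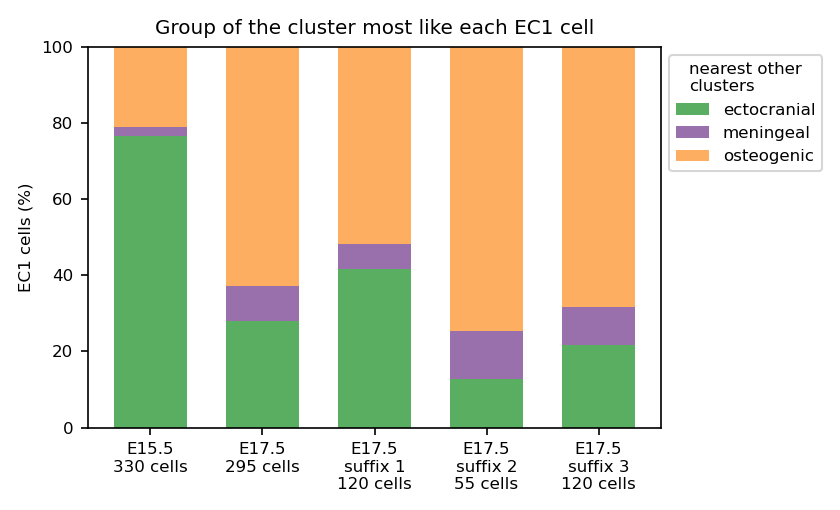
Share of EC1 cells, in percent, whose nearest other cluster was ectocranial, osteogenic or meningeal, for E15.5, E17.5 and the 3 suffixes. The ectocranial portion is largest at E15.5 (76.7%) and the osteogenic portion is largest at E17.5 (62.7%) and in each suffix.

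EC1 cells nearest to different groups shared most of the leading genes and differed in lineage markers. Of the 52 leading genes, 47 were at least 2-fold higher in EC1 cells nearest to ectocranial clusters than in the labelled cells of those clusters at E15.5 and 48 in the E17.5 library, and 36 and 45 in EC1 cells nearest to osteogenic clusters against labelled osteogenic cells. These genes were chosen on the same cells, so the counts show only that no one subset carried most of them alone. In EC1 cells nearest to osteogenic clusters at E15.5, 47 of the 52 were above labelled osteogenic cells. Pi16, Pdpn, Stmn4, Cercam and Krtdap were not. Jag1 was at 262 CPM in EC1 cells nearest to ectocranial clusters against 61.3 in labelled ectocranial cells at E15.5, and at 34.2 against 12.2 in those nearest to osteogenic clusters. At E17.5 it was at 159.8 against 30.7 and at 53.6 against 10.9, so Jag1 was above the matching group each time but higher on the ectocranial side. Notch2 was more even, with 241 against 41.3 and 144 against 28.5 in the E15.5 library and 269 against 38.2 and 172.5 against 18.8 at E17.5. Spry2 in EC1 cells nearest to osteogenic clusters was at 149 against 25.1 CPM at E15.5, but at 8.72 against 2.61 at E17.5.

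Early osteogenic transcription factors and ectocranial markers in these subsets followed the nearest group at E17.5. EC1 cells nearest to osteogenic clusters had 160.7 CPM of Sp7 against 187.3 in labelled osteogenic cells, 117.7 of Runx2 against 110.1 and 134 of Dlx5 against 152, while their Ly6a was 25.5 and their Pi16 34.9. Their osteoblast list, however, summed to 1108 CPM against 5119 in labelled osteogenic cells. EC1 cells nearest to ectocranial clusters had 14.2 CPM of Sp7 and 7.73 of Runx2 but 1598 of Ly6a and 1484 of Pi16, where labelled ectocranial cells together had 693 and 611. Of these 83 EC1 cells 71 were nearest to EC2, in which Ly6a was at 1707 and Pi16 at 1563 CPM, so they were near the cluster they resembled. At E17.5 the 3 transcription factors and the ectocranial markers were thus high in different subsets of EC1 cells. At E15.5 the EC1 cells nearest to osteogenic clusters were different, since Sp7 was at 1.80 CPM against 42.9 in labelled osteogenic cells, Runx2 at 21.6 against 64.8, and the osteoblast list summed to 137 against 8577 CPM. Their Ly6a was 19.8 and the hypodermal list summed to 626 CPM, against 7299 in EC1 cells nearest to ectocranial clusters, so they were low in both sets of markers. At the level of single cells at E17.5, Pi16 was found in 132 EC1 cells, Sp7 in 117 and both in 37, where the product of the shares gives 52.4. Jag1 and Pi16 were found together in 71 cells (product 49.2), Jag1 and Sp7 in 38 (43.6), and Runx2 and Sp7 in 59 (42.0). Deeper cells show more genes, so these counts share the depth of the cell.

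EC2 and EC3 were the clusters most like EC1 outside the called genes. Over 8329 genes, the Pearson correlation of centred log2 levels between EC1 and EC2 was 0.856 at E15.5 and 0.494 in the E17.5 library, and that with EC3 was 0.825 and 0.339. The next was EC4 at E15.5 (0.350) and OG3 at E17.5 (0.0865). At E17.5 this pooled order differs from the single cells, of which 62.7% were nearest to an osteogenic cluster. Across the libraries, the E15.5 profile of EC1 was closer to EC2 (0.762) and EC3 (0.665) of E17.5 than to EC1 of E17.5 (0.532), whereas the E17.5 profile of EC1 was closest to EC1 among the E15.5 clusters, ahead of EC2 (0.429). All profiles of a library share its centring, depth and free RNA, and these correlations are descriptions across genes.

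Against EC2 alone, 79 of 5009 genes (1.58%) were at least 2-fold higher in EC1 in both libraries and 4 of 5106 (0.0783%) were lower. Of the 79, 42 (53.2%) were also among the 52, of which they are 80.8%. Wif1, a secreted inhibitor of Wnt ligands, led the genes at 28.0 CPM against 0.760 at E15.5 and 106 against 14.1 in the E17.5 library, followed by Rpgrip1 (107 against 14.2, 112 against 9.06), Slc39a1 (376 against 52.9, 420 against 51) and Notch2 (228 against 26.9, 211 against 29.7). Trps1, a zinc finger repressor of skeletal cells, was at 17.9 against 2.61 and 22.9 against 3.27, and Ncam1, a neural cell adhesion molecule, at 44.9 against 6.84 and 205 against 15.7. The 4 lower genes were D630033O11Rik, Ccl7 (17.9 against 37.8, 29.3 against 61.9), Casp12 (10.7 against 22.2, 6.33 against 23.8) and Iyd (29.6 against 59.7, 13.4 against 60.9). Against EC3, 65 genes (1.3%) were higher and 5 (0.1%) lower, and 41 of the 65 (63.1%) were among the 52 (78.8%). Abhd2 (44.2 against 6.34, 58.9 against 5.59), Spry2 (207 against 32.4, 46.7 against 6.6) and Cdk6 (31.5 against 4.94, 63.7 against 6.09) had the largest ratios there, and Actb was at 7999 against 1853 and 13348 against 1488 CPM. Ifit1, Gas6, Fgf7, Stoml1 and Atp1b1 were the 5 lower genes. More genes were thus called higher than lower in EC1 at this limit in both libraries. At E17.5 alone, EC1 was well below EC2 in Ly6a (509 against 1707), Pi16 (482 against 1563) and Dpt (238 against 825).

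Between the libraries, the ratio of EC1 to the other cells was at least 2-fold larger at E17.5 for 71 of 6450 genes (1.1%) and at least 2-fold smaller for 44 (0.682%). Of the 71, 65 lay above the E15.5 ratio in each suffix. Genes of the 2 osteogenic lists made up 8 of the 71 and 0 of the 44, and 15 of all 6450. Leaving EC1 aside, 39 of the 71 (54.9%) had their highest cluster at E17.5 in the osteogenic group, close to the 47.4% of all 6450, as did 10 of the 44 (22.7%). The gains with the largest change included Spp1 (0.0455 to 0.264), Sp7 (0.226 to 0.939), Alpl (0.202 to 0.776) and Kazald1 (0.335 to 1.20). Cdh3, Insc, Mlip and Pdzrn4 ranked with them but had 3 or fewer UMIs in EC1 at E15.5. Among the losses, Sfrp2, a secreted Wnt inhibitor of mesenchyme, was at 1881 CPM against 2030 in the E15.5 library and at 582.1 against 2025 at E17.5, with ratios of 0.514, 0.319 and 0.264 in the suffixes. H2-K1, a class I histocompatibility gene, went from 26.3 against 21.3 to 3.95 against 11.5 CPM, and Ly6h from 25 against 28.9 to 1.58 against 7.56. The 2 matrices list different genes, and at E15.5 the header gives a Cell Ranger version other than that of the methods. The mix of the other labelled cells differed as well. For a gene whose level in the other cells also moved, annotation, mix and stage therefore cannot be told apart.

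Pathway lists showed few calls beyond the leading genes. Of 23 Notch genes, 7 had enough UMIs in each library. Jag1 and Notch2 were at least 2-fold higher in both, as were 1.04% of all genes compared, and none was lower. The median ratio was 1.15 and 1.18. Both genes are among the 52 leading genes chosen on these cells, and Jag1 was the marker given for EC1. Their place here is therefore not independent evidence. The Notch target Hes1 was at 189.9 CPM against 164 at E15.5 and 121 against 134 in the E17.5 library, and the nuclear partner Rbpj at 56.9 against 49.3 and 44.3 against 37.4. The ligands Jag2 and Dll4 and the target Hes5 had at most 2 UMIs in EC1. In the FGF list Spry2 was the one call, while its paralogue Spry1 was at 13.7 against 12.4 and 4.35 against 4.02 and the receptor Fgfr1 at 138 against 145 and 136 against 136. In the Wnt list, Lgr4, a receptor for R-spondins, was at 34.5 against 13.0 and 32.4 against 10.3 CPM, Wif1 was lower at E15.5 (28.0 against 67.8), and Sfrp1 and Sfrp2 were lower at E17.5. Of BMP and TGF-β genes, Tgfb3 (21.1 against 60.0), Tgfbi (16.6 against 36.1) and Ltbp2 (9.10 against 18.6) were lower at E15.5, and at E17.5 Ltbp2 was lower (9.49 against 24.5) and the ligand Bmp3 higher (46.7 against 21.0). The Hedgehog receptor Ptch1 was lower at E15.5 (13.3 against 28.6). In the retinoic acid list, Aldh1a3, which makes retinoic acid, was higher at E17.5 (53.8 against 19.6), and the binding protein Crabp2 was lower (18.2 against 52.5).

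Matrix and guidance genes gave a like picture of small numbers. Of the elastic fibre list, 4 of 16 genes were at least 2-fold higher at E17.5 (2.3% of all genes), namely Fbn1 (554 against 258), Mfap5 (1024 against 423), Emilin2 (169.6 against 64.7) and Efemp1 (189.8 against 87.0), and 1 of 17 was lower at E15.5, Mfap4 (330.3 against 742). Taken alone, suffixes 1, 2 and 3 had 2, 1 and 2 of the list higher, and 1 was lower in suffix 1. Among collagens, Col8a1 (152.5 against 366 at E15.5, 122 against 336 at E17.5) and Col11a1 (191 against 414, 139.6 against 312) were lower in both libraries, and Col5a3 was higher at E17.5 (84.6 against 27.4). The insulin-like growth factor binding proteins Igfbp2 and Igfbp3 were lower in both libraries and Igfbp6 was higher at E17.5 (287 against 121). Efna5, an ephrin ligand, was higher at E17.5 (219 against 108), and Ntn1, or netrin 1, too (25.3 against 12.3). In the same lists the ephrin Efnb3 (9.10 against 18.6), the receptor Epha3 (15.3 against 32.6) and the semaphorin co-receptor Nrp2 (26.0 against 63.2) were lower at E15.5. In the list of suprasutural and ligament genes, 3 of 8 were lower at E15.5 and 4 of 10 in the E17.5 library, with Tnmd at 43.6 against 110.2 and 41.1 against 175 CPM, and in the meningeal list 5 of 8 and 7 of 9, where 1.4% and 0.931% of all genes were lower. Within the 3 suffixes the lower genes were 2 of 7, 1 of 7 and 4 of 9 in the first list and 3 of 4, 0 of 2 and 4 of 5 in the second. The transcription factors Msx1 (7.15 against 23.4) and Msx2 (7.15 against 17.1) were lower at E15.5, and Foxc1 in both libraries (5.2 against 17.1, 10.7 against 22.3).

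Lists for other states and cell types had no calls. Over all genes only 1.09% and 2.3% were called higher and 1.4% and 0.931% lower. Lists this short would hold few calls at such rates, so their absence says little about these states and types. Of the immediate early and heat shock genes, 0 of 19 and 0 of 17 passed 2-fold in either direction, with medians of 1.17 and 1.19, and of the cell cycle genes 0 of 14 and 0 of 13, with medians of 0.814 and 0.836. By the authors' calls, 6.97% of EC1 cells in the E15.5 library and 13.6% at E17.5 were in G2 or M phase, against 10.8% and 15.2% of the other labelled cells, and 25.5% and 27.8% were in S phase, against 21.4% and 19.3%. The S phase share was 22.5%, 41.8% and 26.7% in suffixes 1, 2 and 3, against 16.6%, 20.8% and 18.9%. Summed markers were 52.3 CPM against 56.5 at E15.5 and 181 against 169 in the E17.5 library for myeloid cells, 16.9 against 26.2 and 25.3 against 26.7 for endothelium, 322 against 314 and 797 against 755 for pericytes, and 10944 against 10902 and 563 against 546 for erythroid cells. None of the members with enough UMIs in the lists of these types, of chondrocytes, osteoclasts, mast cells, keratinocytes, muscle or glia was called in either direction, and neither was any gene of the dermal, adipose, hyaluronan or suture osteoprogenitor lists.

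The leading genes were also summed in each cell, without Actb, as UMIs of 51 genes per 10000 UMIs. The median was 73.6 in EC1 at E15.5 and 69.9 in the E17.5 library, with 75.1, 66.0 and 63.0 in the suffixes. EC2 followed with 32.3 and 44.6 and EC3 with 22.1 and 29.2, and the other 12 clusters lay between 15.6 and 20.8 in the E15.5 library and between 15.6 and 19.8 at E17.5. The lower quartile of EC1 was 57.3 and 54.2. It was reached by 43 EC2 cells (4.65%) at E15.5 and 136 (22.4%) in the E17.5 library. Over all other labelled cells, 246 reached it at E15.5 and 417 in the E17.5 library, beside 247 and 221 EC1 cells. Those 246 and 417 cells had 7375 and 7362 CPM of Actb, which is not in the sum, against 7999 and 13348 in EC1. Of genes in the sum, Notch2 was at 269 and 178 CPM in them, against 228 and 211 in EC1. Jag1 was at 127 and 55.4, against 219 and 85.4, and Spry2 at 112 and 30.0, against 207 and 46.7. LIG had the largest share of the other clusters at E15.5 (9.86%) and EC2 at E17.5, so the medians set EC1 apart while single cells of several clusters overlapped with it. The genes of this sum were chosen on these cells, and the order of the clusters is a description.

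**Figure D5:**
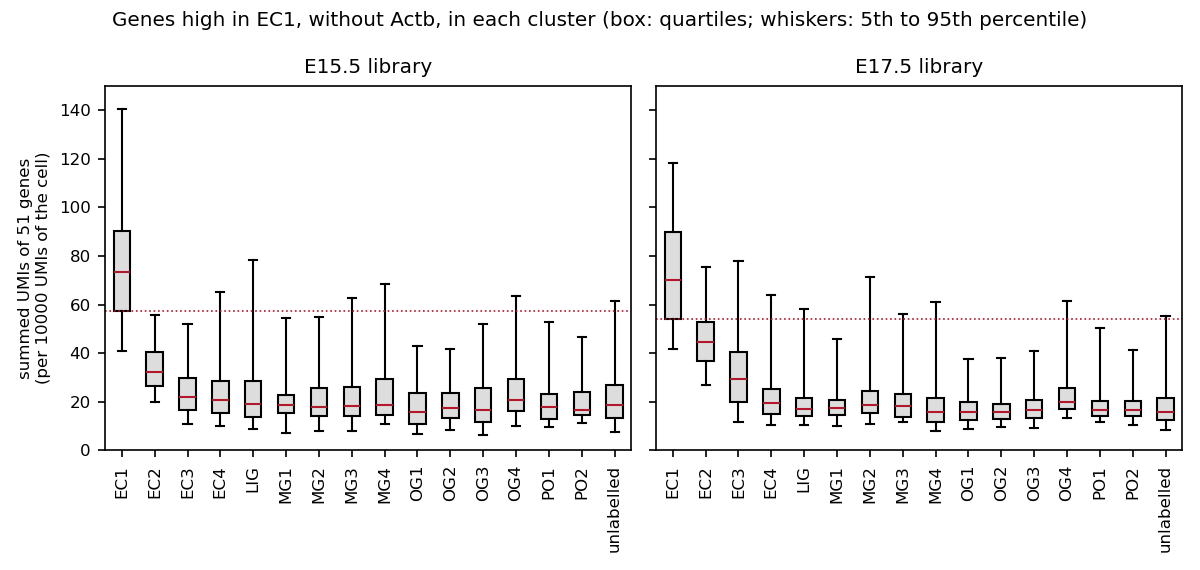
UMIs of 51 leading genes (Actb left out) per 10000 UMIs of a cell, by cluster, with boxes for the quartiles and whiskers from the 5th to the 95th percentile, for E15.5 and E17.5. The dotted line is the lower quartile of EC1, which lies above the boxes of the other 14 clusters in both libraries.

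As for features that the labels did not use, the 52 genes had a median span of 26413.5 bases against 19762.5 in 4954 other genes compared, a median longest transcript of 4169.5 bases against 3002, and a median of 7 exons against 7. In 300 bases around the start, from 250 before to 50 after, on both strands, none of 6 motifs was found in the promoters of Jag1, Notch2 or Spry2 printed above. Over the matched promoters of the 52 genes, all compared genes and all RefSeq genes, the cyclic AMP element TGACGTCA was in 2.38%, 4.33% and 2.03%, the AP-1 motif TGANTCA in 7.14%, 5.44% and 8.97%, the RBPJ core TGGGAA in 19.0%, 25.1% and 28.3%, the E-box CACGTG in 11.9%, 12.6% and 8.09%, CCAAT in 40.5%, 43.0% and 41.1% and TATAAA in 4.76%, 8.63% and 15.7%. No motif was more than 2 times as common in the leading genes as in the genes compared.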

How the data were processed

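The authors deposited raw count matrices (UMIs by gene and barcode, neither normalized nor filtered for cells) and a table that gives the cluster, the percent of mitochondrial, Hbb and Hba UMIs and the cell cycle score of each osteogenic and mesenchymal cell. The cell cycle score and percent values deposited by the authors were used only as given. The authors' methods state alignment and counting with Cell Ranger 2.1.1, while the E15.5 matrix header names 3.1.0 and the gene lists differ, so the 27514 genes listed in both were used. The submitters' processing notes also name Seurat 3.2.0. Of 332 EC1 cells in the table at E15.5, 330 were in the matrix, and 23 of these lay outside the authors' limits (at least 1000 UMIs and 1000 genes, at most 7.5% mitochondrial, 3% Hbb and 3% Hba UMIs) and were kept.

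Counts were summed over the cells of a cluster and divided by their total (CPM). The depth of each cluster sets the exact intervals (95%), which cover counting error and not the spread between embryos or batches. Genes were called at 2-fold (0.5 for lower) with a minimum of 50 UMIs, and a floor of 3 counts stood in for counts under it. Shares with a UMI were also given after thinning each cell to 3000 UMIs, with 8.48% of EC1 cells at E15.5 left out as shallower. Myeloid reference cells were unlabelled barcodes with UMIs of at least 3 of 5 markers. Scrublet was run in each suffix (expected rate 6%). Its own threshold marked 415 of 8210 cells at E15.5 but few in the suffixes, so cells at or above the 94th percentile were left out as an alternative, a limit chosen after seeing the data. For all other values these cells were kept. For the nearest cluster, Pearson correlation with each of the other 14 clusters was used, and 500 and 2000 genes were tried. Named genes were Jag1, Ly6a, Dpt and Pi16, up to 20 higher and 12 lower genes ranked by the weaker of both library ratios, up to 8 in each direction against EC2, against EC3 and between libraries, and the members of 35 gene lists. The members and lists were chosen with earlier results of these data known. Analyses used scanpy 1.11.5, pandas 2.3.3, scipy 1.17.1, numpy 2.4.6 and matplotlib 3.10.9 under Python 3.11.15. Gene positions are from GENCODE vM21. The calls and the nearest cluster were also run on simulated data. For the nearest cluster, simulated cells were drawn from the pooled profiles of the 14 clusters themselves, with no genes left out. That run does not show how well cells whose own cluster is missing, such as EC1 cells, are placed. Some genes that the rule names are not reported here.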

Additional observations from a re-analysis of the deposited data

Results flagged for a closer look

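Among 522 named genes compared, 2 lay on the low side of the other labelled cells at first (E15.5) and above them in every suffix of E17.5. Ncam1, a cell adhesion molecule, was at 44.9 CPM in EC1 against 79.5 at E15.5 (ratio 0.564) and at 205 against 124 at E17.5 (1.66), with ratios of 1.25, 1.86 and 1.89 in suffixes 1, 2 and 3. Col1a1, the main collagen of bone and dermis, was at 5158 CPM against 6551 at E15.5 (0.787) and at 13865 against 10743 at E17.5 (1.29), with ratios of 1.17, 1.5 and 1.17. The difference between the libraries was not tested for either gene.

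Cells without a label, used above only as a myeloid background, also held the leading genes of EC1. For the sum of the 51 leading genes without Actb, 184 of 2875 unlabelled cells (6.40%) at E15.5 and 101 of 1937 (5.21%) in the E17.5 library reached the lower quartile of EC1. These cells had 11743 and 17635 CPM of Actb, against 3519 and 3618 in the unlabelled cells below that value, 239 and 149 CPM of Notch2 against 28.7 and 16.5, and 312 and 123 CPM of Spry2 against 29.9 and 5.86. Jag1 was at 47.3 and 58.7 CPM against 15 and 12.6. They were chosen by the sum, so these levels describe them and were not tested. Col2a1, a collagen of cartilage, was at 6237 and 1519 CPM in them against 3859 and 954, Rgs5, a gene of pericytes, at 56.1 and 407 against 47.9 and 185, and Ptprc, a gene of leukocytes, at 9.90 and 14.7 against 29.4 and 28.4. The share of cells reaching the value was 4.65% and 22.4% in EC2, and in the other clusters it was at most 9.86% at E15.5 (LIG) and 11.3% at E17.5 (EC3).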

How the results depend on the processing

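No paired analysis was possible because each stage has 1 library and both carry only replicate number 1. Among the values that answer a comparison, only the Jag1 ratio could reverse its direction by the rule used, and it stayed above 1. Counts and shares could only stay close or move. Over all values that answer a comparison, 69 stayed close to those reported and 40 did not, and these follow. With all cells of the library as the denominator the share of EC1 was 4.02% at E15.5 and 3.36% in the E17.5 library, and it was 9.72% and 1.99% in suffixes 1 and 2. The Jag1 ratio ranged from 3.44 to 7.44: the mean of single cells gave 6.01 at E15.5, equal weights for clusters 7.44 and 4.27, suffix 2 4.12, and the shares of thinned cells 3.93 and 3.44. The number of osteoblast genes at least 2-fold lower at E17.5 was 2 in suffix 2 alone, against 4. For genes higher than in the other cells, 52 became 32 in suffix 1 and 19 in suffix 2, 154 at 1.5-fold, 21 at 3-fold and 233 without a minimum of UMIs. For lower genes, 32 became 53 with equal weights, 8 in suffix 2, 19 in suffix 3, 63 at 1.5-fold, 12 at 3-fold, 54 with at least 20 UMIs and 2604 with no minimum. Cells with high doublet scores left out gave 54 higher genes, 50 of them among the 52, and 30 lower, 29 of them among the 32. At 1.5-fold, 169 genes were higher and 60 lower than in EC2, and 140 and 49 than in EC3, and the mean of single cells gave 8 genes lower than in EC2, against 4. Between libraries, 71 gains became 46 in suffix 1, 44 losses became 88, 212 and 98 in suffixes 1, 2 and 3, and the level of EC1 alone gave 380 and 629. In suffixes 2 and 3 the gains stayed close to the 71 reported. Losses thus outnumbered gains at least in suffixes 1 and 2 and for the level of EC1 alone, the reverse of the order reported. The ectocranial share of nearest clusters at E17.5 (28.1%) was 41.7%, 12.7% and 21.7% in the suffixes and the osteogenic share (62.7%) 51.7%, 74.5% and 68.3%. A suffix alone holds fewer UMIs, so fewer genes pass the minimum. For the larger number of losses in the suffixes and for the other settings the cause was not tested. Of the ratios of 11 further genes under the alternatives, 157 of 165 kept their side of 1, and the other 8 were Sp7, Runx2 and Dlx5 at E17.5, at 0.939, 0.968 and 0.898 as reported and between 1.03 and 1.23 with single-cell means, equal weights or a suffix alone. Depth limits genes under 50 UMIs, and suffix 2, with 55 EC1 cells, was the thinnest subset.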
